A study of Mus musculus with 20 samples.

Results

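Interferon-stimulated genes were followed across 20 microarrays of mouse embryonic fibroblasts (MEFs), connective tissue cells taken from embryos, kept for 24 hours with mouse serum. The members are 37 genes listed as known targets of interferon, and every probe whose RefSeq transcript belongs to one of them was used. Of the 37, 35 had a probe, among 17174 genes named on the arrays. The influenza resistance genes Mx1 and Mx2 matched none and were not analysed here. The 35 genes had 53 probes, of which 21 genes had 1 and 14 had several. A probe was tested if some group had it well above background on each of its 5 arrays, which held for 45 probes of 34 genes, and 39 probes were above background on all 20 arrays. Both probes of Oas3 stayed out, as did 6 further probes of Cmpk2, Oas2, Rsad2, Ifih1 and Parp14 that have a brighter partner. Where a gene has several probes, they are numbered by mean signal, probe 1 being the brightest.

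The serum came from female C3H/HeN mice, an inbred strain, and the 4 groups had 5 arrays each. Irradiated serum came from mice given 4 Gy (10-day set) or 8 Gy (20-day set), and control serum from non-irradiated mice (0 Gy) of the same 2 sets. The labels abbreviate the irradiation regime as L/MDR without expanding it, give no age of the mice and no strain of the MEFs, and do not say whether the days are a length of exposure or a time until serum was taken. Dose and day therefore change together between the irradiated groups. Nothing states that the 5 arrays of a group came from separate cultures or donor mice, so the p-values reflect the spread among these arrays alone and that spread may be technical. All values are log2 signal minus that array's 75th percentile, so that 0 is the level of that percentile and 1 unit is a 2-fold step.

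Type I interferons are secreted proteins that cells release on sensing foreign or misplaced nucleic acid. They bind the receptor formed by Ifnar1 and Ifnar2, whose kinases Jak1 and Tyk2 phosphorylate Stat2 and other signal transducers. Stat2 and Irf9 are parts of the complex ISGF3, which binds the interferon-stimulated response element (ISRE) in target promoters. Interferon gamma acts through its own receptor and through the gamma-activated sequence (GAS) of its target promoters. Fibroblasts are a classical source of interferon beta and respond to it with a broad antiviral programme.

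Promoter sequence was available from RefSeq (build GRCm38.p6) for 27 of the members, as windows of 250 bases before and 50 after a start site. The ISRE core, searched as GAAANNGAAA on both strands, lay in the window of 16 of the 27 (59.3%), against 3.99% of 27025 genes. The GAS core, searched as TTCNNNGAA, lay in 7 of the 27 (25.9%), against 9.55% of all genes, 4 members had both and 8 had neither. The motifs describe the members as a list of known interferon targets and were not tied to the measurements. The 6 sequences here are the 250 bases before the start, read 5′ to 3′ in the direction of the gene, with both motifs in capitals. They show Isg15 and Ifit1, the usual read-outs of the pathway, and Stat2, which was called higher with 8 Gy serum. They also show Irf1, whose probes were called in opposite directions, and Bst2 and Irgm1, of which a probe was called lower. They lie at chr4:156200819-156201068 (minus strand), chr19:34640639-34640888 (plus), chr10:128270248-128270497 (plus), chr11:53769764-53770013 (plus), chr8:71537473-71537722 (minus) and chr11:48871421-48871670 (minus).
Isg15: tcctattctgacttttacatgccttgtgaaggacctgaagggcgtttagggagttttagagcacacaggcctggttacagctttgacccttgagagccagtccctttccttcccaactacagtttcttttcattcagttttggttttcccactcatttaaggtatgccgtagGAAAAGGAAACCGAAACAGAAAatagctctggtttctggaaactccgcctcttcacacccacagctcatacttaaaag
Ifit1: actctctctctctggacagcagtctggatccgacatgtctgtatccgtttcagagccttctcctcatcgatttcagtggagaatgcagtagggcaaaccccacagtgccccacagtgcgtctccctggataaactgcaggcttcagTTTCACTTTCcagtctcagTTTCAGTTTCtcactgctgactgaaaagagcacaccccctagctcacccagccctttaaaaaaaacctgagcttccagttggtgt
Stat2: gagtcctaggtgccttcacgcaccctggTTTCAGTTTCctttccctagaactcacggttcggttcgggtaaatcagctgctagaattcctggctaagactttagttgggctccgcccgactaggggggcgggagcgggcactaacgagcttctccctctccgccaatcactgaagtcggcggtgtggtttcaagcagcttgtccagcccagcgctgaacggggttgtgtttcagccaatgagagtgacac
Irf1: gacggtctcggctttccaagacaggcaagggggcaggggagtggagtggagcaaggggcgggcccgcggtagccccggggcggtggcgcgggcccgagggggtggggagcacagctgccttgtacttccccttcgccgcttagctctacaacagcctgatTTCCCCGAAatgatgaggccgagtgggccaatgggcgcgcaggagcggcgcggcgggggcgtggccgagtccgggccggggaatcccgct
Bst2: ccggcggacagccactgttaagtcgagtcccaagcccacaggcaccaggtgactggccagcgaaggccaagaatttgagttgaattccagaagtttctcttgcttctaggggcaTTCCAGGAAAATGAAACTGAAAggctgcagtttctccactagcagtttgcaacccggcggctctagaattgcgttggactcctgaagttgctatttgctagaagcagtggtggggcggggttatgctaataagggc
Irgm1: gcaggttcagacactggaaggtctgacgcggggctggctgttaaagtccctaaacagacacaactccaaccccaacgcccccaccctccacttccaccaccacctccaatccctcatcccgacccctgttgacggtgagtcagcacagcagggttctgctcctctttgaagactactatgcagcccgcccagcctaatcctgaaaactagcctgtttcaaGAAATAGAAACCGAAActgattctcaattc
Irf1 carried a GAS and no ISRE core in this window, and in Bst2 a GAS and an ISRE core overlapped.

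The 20 arrays had 57.0% to 67.2% of their 41174 probes well above background. Arrays of 1 group correlated at 0.976 or more over all probes, and no 2 arrays of a group held identical values. The 20-day control arrays varied most, with a median SD over all tested probes of 0.295, against 0.115 to 0.145 in the other groups. The arrays lay on 7 slides. In the 20-day set each slide held 1 group, and in the 10-day set a single slide held both groups (4 Gy arrays 1 and 2 with control array 5). Fibroblast markers were above background on all arrays (12 genes, 19 probes), but the 20-day cultures also carried macrophage and myeloid transcripts. The summed signal of 24 probes of 15 such genes, in units of the 75th percentile, was 51.0 to 63.1 on 8 Gy arrays and 53.8 to 70.9 on 20-day control arrays, against 3.13 to 3.64 on 4 Gy arrays and 2.31 to 3.27 on 10-day control arrays. In RNA from whole cultures, fewer cells of a type and less RNA per cell cannot be told apart.

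With 4 Gy serum the members hardly passed the test in either direction. In the 10-day set, 1 of the 45 member probes was higher and 2 were lower with 4 Gy serum than with control serum at an adjusted p under 0.05 (limma, Benjamini-Hochberg over all probes). Over all 26237 tested probes 3.85% were higher and 1.39% lower. The median change of the members was -0.18, with 36 of 45 probes below 0, against -0.0010 for all tested probes. The probe called higher was Ifit2 probe 1, and the 2 called lower were Irgm1 probe 2 and Trim30a probe 1.

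Ifit2, whose protein binds viral RNA and blocks its translation, had 5 values of -0.89, -0.88, -0.72, -0.78 and -0.79 on 4 Gy arrays and of -1.21, -1.08, -1.08, -0.97 and -0.97 on 10-day control arrays at probe 1. All 4 Gy arrays lay above all control arrays, by 0.25 ± 0.07 in the mean (SE, limma adjusted p = 0.0422). Its second probe differed by -0.05 ± 0.20 (adjusted p = 0.920).

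Irgm1, a GTPase that directs autophagy against intracellular bacteria, had values of 1.23, 1.24, 1.31, 1.01 and 1.06 on 4 Gy arrays and 1.40, 1.85, 1.70, 1.49 and 1.30 on control arrays at probe 2. The difference was -0.38 ± 0.10 (limma adjusted p = 0.0325), and 4 Gy array 3 lay just above control array 5. Probe 1 of Irgm1 differed by -0.41 ± 0.25 (adjusted p = 0.353) with groups that did not overlap. Trim30a, an inhibitor of NF-kappaB signalling in mice, had values of -5.61, -5.57, -6.22, -5.63 and -5.90 on 4 Gy arrays and -5.22, -4.58, -4.65, -5.58 and -5.42 on control arrays at probe 1, a low signal that was not above background on 1 of the 4 Gy arrays. It fell by 0.69 ± 0.17 with 4 Gy serum (limma adjusted p = 0.0244), the groups overlapping at control array 4.

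None of these 3 calls held once slides were taken into account. With slide as a random block, the adjusted p was 0.609 for Ifit2 probe 1, 0.622 for Irgm1 probe 2 and 0.595 for Trim30a probe 1. Among all 26237 tested probes that fit called none higher and 1 lower, so the loss was not particular to these members. On the slide that held both groups, 2 arrays of 4 Gy against 1 control array, the differences were 0.09, -0.06 and -0.16. On that slide 31 of 45 member probes were negative, with a median of -0.07, while 13063 of 25944 tested probes were positive, with a median of 0.0011. Each call was also lost without any 1 of several arrays. Ifit2 probe 1 lost it without control array 1 (0.22), 2 (0.25), 3 (0.25) or 4 (0.27) or 4 Gy array 3 (0.23), 4 (0.24) or 5 (0.25). Irgm1 probe 2 lost it without control array 2 (-0.30), 3 (-0.34) or 4 (-0.39) or 4 Gy array 3 (-0.41), 4 (-0.34) or 5 (-0.35). Trim30a probe 1 lost it without control array 2 (-0.57) or 3 (-0.58) or 4 Gy array 3 (-0.59), 4 (-0.73) or 5 (-0.66).

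With 8 Gy serum members went both ways. In the 20-day set, 7 of 45 member probes (6 genes) were higher and 11 (11 genes) lower with 8 Gy serum than with control serum, at median -0.17. Over all 26238 tested probes 20.6% were higher and 27.4% lower, with a median of -0.06, so the members' shares were near those of the whole array. Of the 6 transcription factor probes, 3 were higher (Irf7, Stat2 and Irf1 probe 2) and 1 lower (Irf1 probe 1). Without the control arrays of slide 4 neither Irf7 nor Stat2 was called. The sensors of viral RNA and DNA had 2 of 7 higher and 1 lower, and the antiviral effectors 2 of 16 higher and 4 lower. None of the 6 GTPase probes and none of the 10 probes of regulators and others was called higher, while 2 and 3 of them were called lower.

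**Figure D1:**
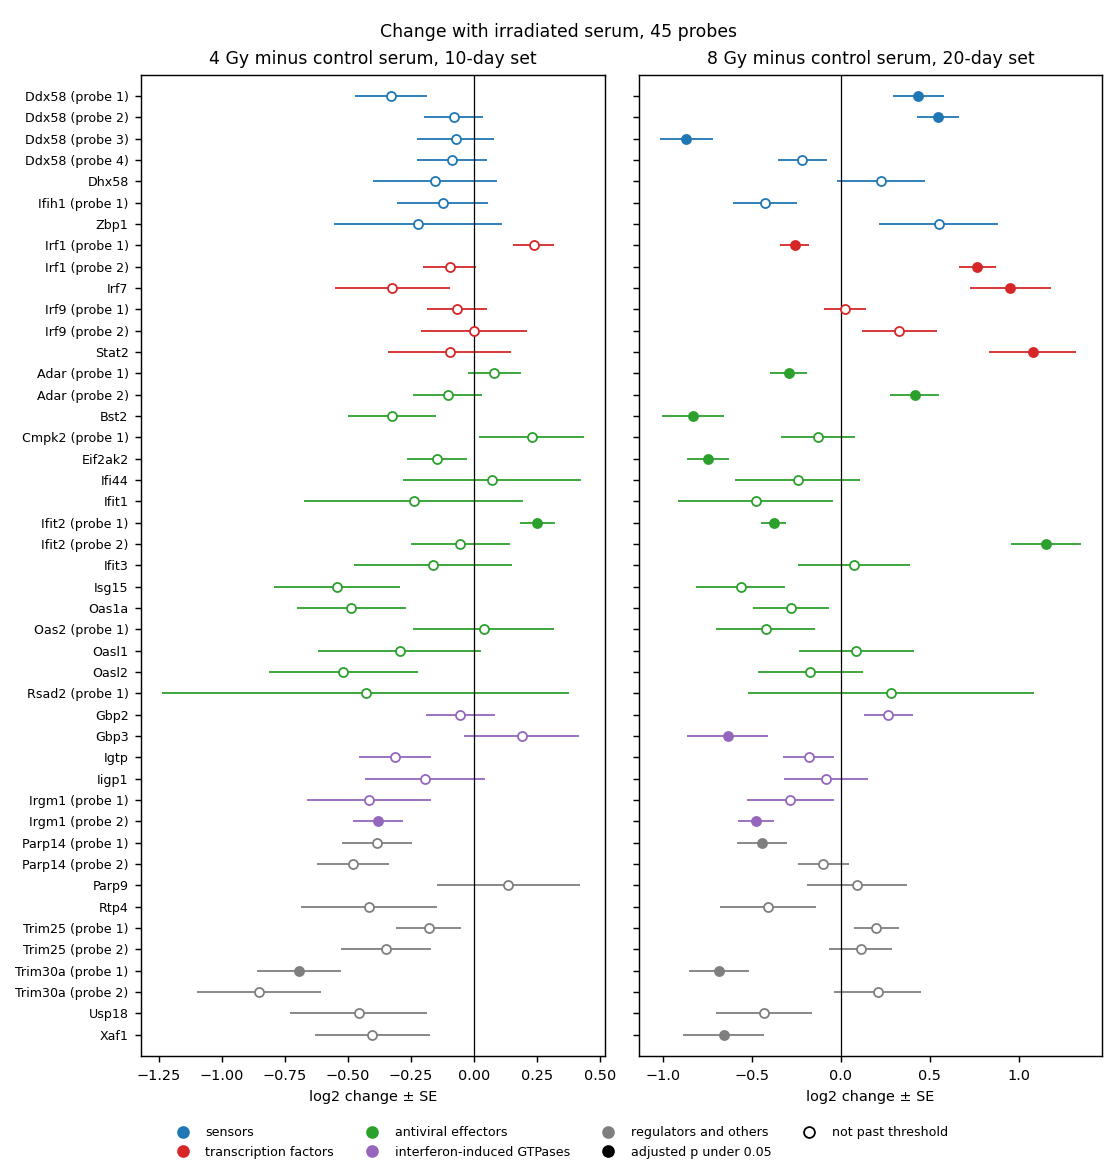
Log2 change with irradiated serum (x axis, ± SE of the limma fit) for the 45 tested probes (rows, grouped by role), at left for 4 Gy minus control serum in the 10-day set and at right for 8 Gy minus control serum in the 20-day set. Filled points passed an adjusted p of 0.05, which 1 higher and 2 lower probes did at 4 Gy and 7 higher and 11 lower probes at 8 Gy.

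Stat2, the partner of Irf9 in ISGF3, read 0.80, 0.75, 0.89, 0.66 and 0.83 on 8 Gy arrays and -0.92, -1.12, -0.15, -0.0043 and 0.73 on 20-day control arrays. The 8 Gy arrays were close together, whereas the controls spread widely, and control array 5 reached into the 8 Gy range. Stat2 rose by 1.08 ± 0.24 (2.11-fold, limma adjusted p = 0.00127). In the 10-day set it read 0.12, 0.50, 0.84, 0.67 and 0.66 on 4 Gy arrays and 0.70, 0.80, 0.80, 0.41 and 0.55 on control arrays, overlapping throughout (-0.10 ± 0.24, adjusted p = 0.875). Of the 4 group means, that of the 20-day controls was the lowest.

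Irf7, which amplifies interferon alpha production, read -2.50, -2.95, -2.43, -2.89 and -2.65 on 8 Gy arrays and -3.73, -3.68, -4.10, -3.79 and -2.88 on 20-day control arrays. Only control array 5 overlapped the 8 Gy arrays, and the rise was 0.95 ± 0.23 (1.94-fold, limma adjusted p = 0.00207). On 4 Gy arrays Irf7 read -3.56, -3.08, -2.55, -2.70 and -3.17, against -2.56, -2.20, -2.46, -3.14 and -3.08 on 10-day control arrays, with overlap (-0.32 ± 0.23, adjusted p = 0.454). Without the 3 control arrays of slide 4, which had the fewest probes above background, the change was 0.42 for Stat2 (adjusted p = 0.0677) and 0.65 for Irf7 (adjusted p = 0.0815), and neither was called.

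Irf9, the DNA-binding part of ISGF3, passed in neither set. Probe 1 read 1.14, 1.18, 1.27, 1.03 and 1.25 on 8 Gy arrays and 1.29, 1.07, 0.94, 0.95 and 1.51 on 20-day control arrays. It read 0.45, 0.57, 0.89, 0.79 and 0.68 on 4 Gy arrays and 0.79, 0.93, 0.92, 0.49 and 0.56 on 10-day control arrays. In both sets the groups overlapped, with differences of 0.02 ± 0.12 (adjusted p = 0.880) for 8 Gy and -0.07 ± 0.12 (adjusted p = 0.814) for 4 Gy. The dimmer probe 2 read -3.17, -3.15, -1.84, -3.42 and -3.08 on 8 Gy arrays and -3.40, -3.38, -3.19, -3.47 and -2.85 on control arrays, where 8 Gy array 3 stood alone. On 4 Gy arrays probe 2 read -3.18, -3.09, -2.72, -2.88 and -2.87, and on 10-day control arrays -3.01, -2.93, -2.85, -3.06 and -2.89.

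Irf1, a factor induced by interferon gamma that binds ISRE-like sites, had probes that moved apart. The bright probe 1 read 2.32, 2.45, 2.56, 2.63 and 2.49 on 8 Gy arrays and 2.91, 2.76, 2.58, 2.67 and 2.84 on control arrays, a fall of 0.26 ± 0.08 (limma adjusted p = 0.0135) with slight overlap. Probe 2 read -1.75, -1.80, -1.51, -1.70 and -1.99 on 8 Gy arrays and -2.30, -2.28, -2.43, -2.77 and -2.79 on control arrays. There every 8 Gy array was above every control array, and the rise was 0.77 ± 0.10 (limma adjusted p = 1.01e-05). In the 10-day set probe 1 averaged 2.34 ± 0.14 on 4 Gy arrays and 2.10 ± 0.07 on control arrays (SD, n = 5 each), with a limma adjusted p of 0.0955. That probe was called without 4 Gy array 2 (0.28, adjusted p = 0.0477).

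**Figure D2:**
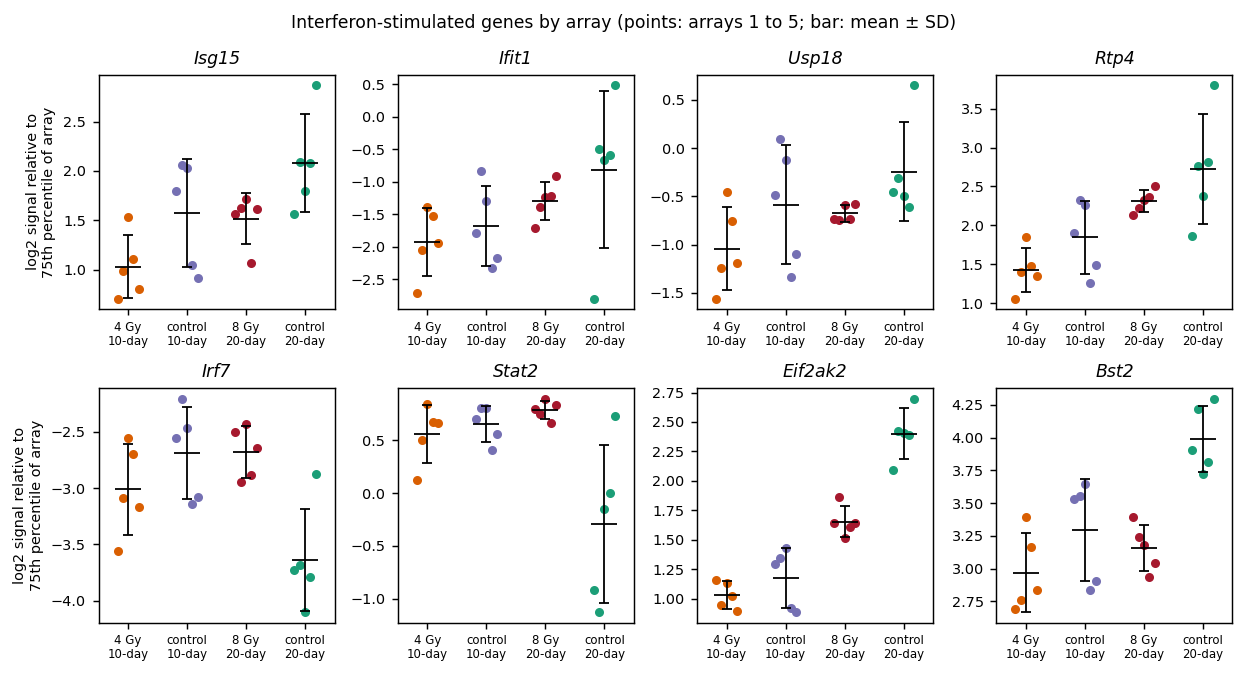
Log2 signal minus the array's 75th percentile (y axis) for 8 members on each of the 20 arrays, by group on the x axis, with points for arrays 1 to 5 from left to right and the bar for mean ± SD. Eif2ak2 and Bst2 were lower on all 8 Gy arrays than on all 20-day control arrays, and in Isg15, Ifit1, Usp18 and Rtp4 control array 5 of the 20-day set was the highest of its group.

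Among the sensors, Ddx58 (RIG-I, which detects viral RNA with a 5′ triphosphate) had 4 probes and 3 calls. Probe 1 read -0.10, -0.15, 0.14, -0.62 and -0.30 on 8 Gy arrays and -0.50, -0.86, -0.28, -0.79 and -0.78 on 20-day control arrays, and rose by 0.44 ± 0.14 (limma adjusted p = 0.0170). Probe 2 read -1.40, -1.49, -1.28, -1.60 and -1.50 on 8 Gy arrays and -2.04, -1.86, -1.94, -2.37 and -1.81 on control arrays, a rise of 0.55 ± 0.12 (adjusted p = 0.000897). Probe 1 overlapped between the groups and probe 2 did not. Probe 3 read -2.89, -3.40, -2.84, -2.27 and -2.81 on 8 Gy arrays and -2.09, -1.89, -2.15, -1.84 and -1.88 on control arrays, and fell by 0.87 ± 0.15 without overlap (adjusted p = 0.000122). Probe 4 was not called (-0.22 ± 0.14, adjusted p = 0.208). The call of probe 1 was lost without 8 Gy array 3 (0.35, adjusted p = 0.0558).

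The other sensors had no call in either irradiated comparison. Ifih1 (MDA5, a sensor of long double-stranded RNA) averaged -0.97 ± 0.29 on 8 Gy arrays and -0.54 ± 0.48 on 20-day control arrays (SD, n = 5 each). Dhx58 (LGP2, a relative of both) averaged -1.43 ± 0.18 and Zbp1 (a sensor of Z-form nucleic acid) -1.23 ± 0.16 on 8 Gy arrays, against -1.66 ± 0.76 and -1.78 ± 0.90 on control arrays. The control SDs of Dhx58 and Zbp1 exceeded the differences between the groups.

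Eif2ak2 (PKR, a kinase that stops translation when it binds double-stranded RNA) read 1.64, 1.86, 1.51, 1.61 and 1.65 on 8 Gy arrays and 2.09, 2.42, 2.40, 2.39 and 2.70 on 20-day control arrays. The groups did not overlap, and Eif2ak2 fell by 0.75 ± 0.12 with 8 Gy serum (0.596-fold, limma adjusted p = 4.76e-05). Bst2 (tetherin, which holds budding virus at the cell surface) read 3.39, 3.24, 3.18, 2.94 and 3.04 on 8 Gy arrays and 3.91, 4.22, 3.72, 3.82 and 4.30 on control arrays. It fell by 0.83 ± 0.18 (0.561-fold, limma adjusted p = 0.000731), again without overlap. Both calls held with slide as a random block (adjusted p = 0.00198 for Eif2ak2 and 0.0105 for Bst2) and without the slide 4 control arrays. In the 10-day set Eif2ak2 averaged 1.03 ± 0.11 on 4 Gy arrays and 1.18 ± 0.25 on control arrays, and Bst2 2.97 ± 0.30 on 4 Gy arrays and 3.29 ± 0.39 on control arrays (SD, n = 5 each), with no call.

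Ifit2 was called in opposite directions at its probes. The bright probe 1 read -0.57, -0.57, -0.86, -0.81 and -0.69 on 8 Gy arrays and -0.33, -0.26, -0.34, -0.34 and -0.34 on 20-day control arrays, and fell by 0.38 ± 0.07 (limma adjusted p = 0.000220). Probe 2 read -4.01, -3.03, -3.28, -3.66 and -3.40 on 8 Gy arrays and -5.20, -5.03, -4.30, -4.57 and -4.08 on control arrays, and rose by 1.16 ± 0.20 (limma adjusted p = 0.000104). The groups of neither probe overlapped, and probe 2 was above background on only 3 of the 5 control arrays. Adar, an enzyme that edits adenosine in double-stranded RNA, read -1.23, -1.26, -1.34, -0.95 and -0.998 on 8 Gy arrays and -0.77, -0.98, -0.97, -0.94 and -0.64 on control arrays at probe 1, a fall of 0.30 ± 0.10 (adjusted p = 0.0259). Probe 2 of Adar read -2.27, -2.35, -1.99, -2.01 and -1.99 on 8 Gy arrays and -2.67, -2.60, -2.67, -2.77 and -1.98 on control arrays, a rise of 0.42 ± 0.14 (adjusted p = 0.0178). Both Adar probes overlapped between groups, and the call of probe 1 was lost without control array 5 (-0.24) or 8 Gy array 1 (-0.28), 2 (-0.27) or 3 (-0.25). Without the slide 4 control arrays probe 2 differed by 0.25 (adjusted p = 0.264).

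Of the 9 members with several tested probes, 4 (Adar, Ddx58, Ifit2 and Irf1) had probes called in opposite directions at 8 Gy. Over all genes with several tested probes this held for 493 of 4705 (10.5%). At 4 Gy it held for no member. In Ddx58, Ifit2 and Irf1 the array annotation gives the opposed probes the same RefSeq transcript, and in Adar a different one each. What separates the probes of a gene was not tested, so the direction of these 4 genes is not settled.

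**Figure D3:**
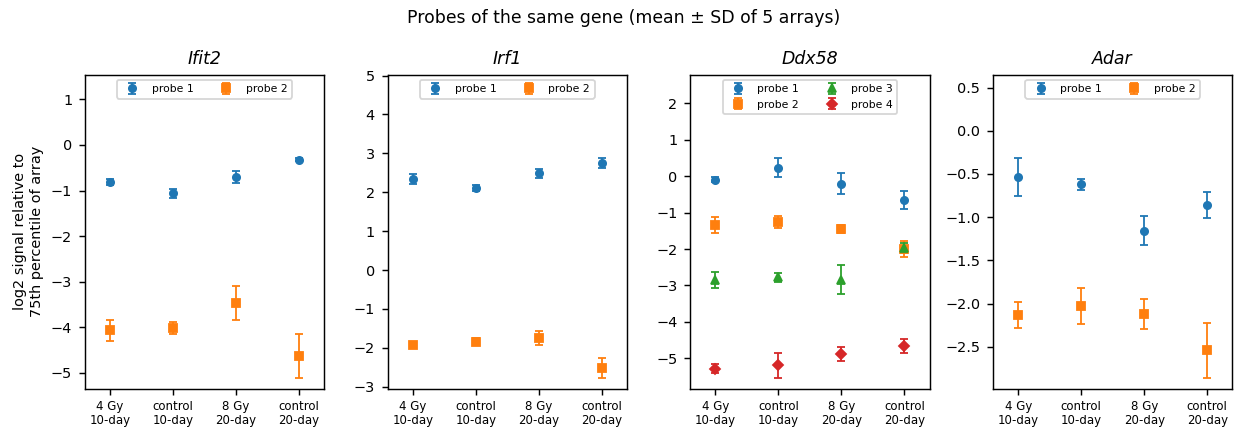
Mean ± SD (5 arrays) of log2 signal minus the array's 75th percentile (y axis) in the 4 groups (x axis) for every tested probe of Ifit2, Irf1, Ddx58 and Adar. In the 20-day set the brightest probe of Ifit2, Irf1 and Adar was lower with 8 Gy than with control serum while a dimmer one was higher, and in Ddx58 probes 1 and 2 were higher and probe 3 lower.

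Isg15, the ubiquitin-like protein joined to other proteins after interferon, passed in neither comparison. It read 1.57, 1.62, 1.72, 1.06 and 1.61 on 8 Gy arrays and 1.56, 2.09, 1.80, 2.08 and 2.87 on 20-day control arrays. On 4 Gy arrays it read 0.71, 0.99, 1.53, 1.11 and 0.81, and on 10-day control arrays 1.80, 2.06, 2.03, 1.05 and 0.92. The control arrays of the 10-day set fell into 3 high and 2 low values. The differences were -0.56 ± 0.25 for 8 Gy (limma adjusted p = 0.0711) and -0.54 ± 0.25 for 4 Gy (adjusted p = 0.218), with overlap in both sets. The 8 Gy difference was called without control array 1 (-0.69, adjusted p = 0.0326), and on the slide shared by both 10-day groups the 4 Gy difference was -0.07.

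Ifit1, which binds RNA that lacks a host cap, read -1.71, -1.39, -1.23, -1.23 and -0.90 on 8 Gy arrays and -2.80, -0.49, -0.67, -0.59 and 0.49 on 20-day control arrays. A single low control array put the control range around the 8 Gy values, and the difference was -0.48 ± 0.44 (limma adjusted p = 0.381). Without that array, control array 1, it was -0.98 and was called (adjusted p = 0.0161). On 4 Gy arrays Ifit1 read -2.72, -2.05, -1.40, -1.52 and -1.94, and on 10-day control arrays -1.79, -0.84, -1.30, -2.33 and -2.17 (-0.24 ± 0.44, adjusted p = 0.817). Usp18, the protease that removes Isg15 and dampens the receptor, read -0.74, -0.75, -0.59, -0.73 and -0.58 on 8 Gy arrays and -0.45, -0.31, -0.49, -0.61 and 0.65 on 20-day control arrays (-0.43 ± 0.27, adjusted p = 0.197). On 4 Gy arrays it read -1.56, -1.24, -0.46, -0.76 and -1.19, and on 10-day control arrays -0.48, 0.10, -0.12, -1.33 and -1.10 (-0.46 ± 0.27, adjusted p = 0.355). Neither gene separated irradiated from control arrays.

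The remaining effectors had no call with irradiated serum. Ifit3 (a partner of Ifit1 and Ifit2), Oas1a, Oas2, Oasl1 and Oasl2 (the 2′-5′-oligoadenylate synthetase family, part of which activates RNase L), Rsad2 (viperin), Cmpk2 (a mitochondrial nucleotide kinase) and Ifi44 differed by between -0.42 (Oas2) and 0.28 (Rsad2) with 8 Gy serum. With 4 Gy serum they differed by between -0.52 (Oasl2) and 0.23 (Cmpk2). Rsad2 was dim and variable, with an SD of 1.45 on 4 Gy arrays and 1.96 on 10-day control arrays. Ifi44 averaged -1.77 ± 0.09 on 8 Gy arrays and -1.53 ± 1.02 on 20-day control arrays (SD, n = 5 each).

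The GTPases that interferon gamma induces against intracellular pathogens had 2 lower calls at 8 Gy. Irgm1 probe 2 read 0.92, 1.01, 0.97, 0.87 and 1.03 on 8 Gy arrays and 1.38, 1.34, 1.39, 1.39 and 1.69 on control arrays, without overlap. It fell by 0.48 ± 0.10 (limma adjusted p = 0.000613), beside -0.29 ± 0.25 at its probe 1 (adjusted p = 0.351). Gbp3, a guanylate-binding protein, read -1.11, -0.78, -0.69, -0.81 and -0.82 on 8 Gy arrays and -0.44, 0.07, -0.39, -0.61 and 0.36 on control arrays, and fell by 0.64 ± 0.23 without overlap (limma adjusted p = 0.0270). The Gbp3 call was lost without control array 2 (-0.57) or 5 (-0.50) or 8 Gy array 1 (-0.57). Gbp2, Igtp and Iigp1, of the same GTPase groups, differed by 0.27 ± 0.14, -0.18 ± 0.14 and -0.08 ± 0.24 with 8 Gy serum and were not called.

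Of the regulators and other members, Trim30a probe 1 read -2.40, -2.37, -2.33, -2.32 and -2.58 on 8 Gy arrays and -1.84, -1.63, -1.82, -1.69 and -1.59 on 20-day control arrays. It fell by 0.69 ± 0.17 without overlap (limma adjusted p = 0.00240), while probe 2 differed by 0.21 ± 0.25 (adjusted p = 0.513). Parp14, an ADP-ribosyltransferase, read 0.71, 0.70, 0.85, 0.98 and 0.90 on 8 Gy arrays and 1.52, 1.19, 1.04, 1.13 and 1.49 on control arrays at probe 1. It fell by 0.44 ± 0.14 without overlap (limma adjusted p = 0.0133), beside -0.10 ± 0.14 at probe 2 (adjusted p = 0.595). Xaf1, a promoter of apoptosis, read -0.38, -0.27, -0.37, -0.80 and -0.48 on 8 Gy arrays and -0.33, 0.20, -0.10, 0.17 and 1.06 on control arrays, and fell by 0.66 ± 0.23 (limma adjusted p = 0.0230). Control array 1 of Xaf1 lay among the 8 Gy arrays, and the call was lost without control array 5 (-0.45) or 8 Gy array 4 (-0.58). With 4 Gy serum Parp14 probe 1 was not called (-0.38, limma adjusted p = 0.114), nor with slide as a random block (adjusted p = 0.749). It was called lower there only when control array 4 of that set was left out (-0.52, adjusted p = 0.0314). On that array 33 of the 45 member probes were the lowest of their group. Trim25 (a ubiquitin ligase that activates RIG-I), Parp9 and Rtp4 were not called, at differences between -0.41 (Rtp4) and 0.20 (Trim25 probe 1).

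With slide as a random block, 11 of the 18 calls at 8 Gy remained (5 higher and 6 lower), against 13.6% of all tested probes higher and 18.4% lower in that fit. The 7 lost were Irf1 probe 1 (adjusted p = 0.0892), Ddx58 probe 1 (0.0991), Gbp3 (0.122), Parp14 probe 1 (0.117), Xaf1 (0.0810), Adar probe 1 (0.0992) and Adar probe 2 (0.112). Over the processing alternatives other than leaving out 1 array, Adar probe 2 was called in 2 of 11 and Irf1 probe 1 in 6 of 12, the fewest of the 18. Since each 20-day slide held 1 group, slide could not be fitted as a fixed term there. Without the 3 control arrays of slide 4, 4 member probes were higher and 17 lower, against 23.2% and 26.6% of all tested probes. Isg15 (-0.96), Ifit1 (-1.24), Ifi44 (-1.28), Rtp4 (-0.99), Ifih1 probe 1 (-0.65), Dhx58 (-0.50) and Irgm1 probe 1 (-0.81) were then called lower, against 2 control arrays.

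The 8 Gy and 4 Gy responses were also set against each other. The difference between them (8 Gy minus its control, less 4 Gy minus its control) was called higher for 8 member probes and lower for 4, against 15.3% and 21.1% of all tested probes. The largest positive differences were 1.27 ± 0.32 for Irf7 (limma adjusted p = 0.00484), 1.21 ± 0.28 for Ifit2 probe 2 (0.00255) and 1.17 ± 0.34 for Stat2 (0.0121). The 4 negative ones were Ddx58 probe 3, Ifit2 probe 1, Eif2ak2 and Irf1 probe 1. Ifit2 probe 1 differed by -0.63 ± 0.10 (adjusted p = 0.000103), having been called higher with 4 Gy serum and lower with 8 Gy serum. With slide as a random block 6 of the 12 calls remained (3 higher and 3 lower), against 8.93% of all tested probes higher and 11.3% lower. The calls of Stat2 (adjusted p = 0.0523), Ifit2 probe 2 (0.0603), Irf1 probe 1 (0.0579), Ddx58 probe 1 (0.0736), Adar probe 2 (0.176) and Trim30a probe 2 (0.209) were lost, and Irf7 had an adjusted p of 0.0498. Without the slide 4 control arrays the difference was 0.52 for Stat2 (adjusted p = 0.0787) and 0.97 for Irf7 (adjusted p = 0.0447). Dose, day, slide and scan day all differ between the sets and cannot be told apart here.

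More member probes passed the test between the sets than between irradiated and control serum, which also held for all tested probes. With control serum, 17 of 45 member probes were higher and 10 lower in the 20-day than in the 10-day set, against 35.4% and 32.3% of all tested probes. With irradiated serum, 18 were higher in the 20-day set (8 Gy) than in the 10-day set (4 Gy) and 2 lower, against 28.2% and 28.9%. With slide as a random block 12 of these 18 and both lower calls remained, against 21.0% of all tested probes higher and 21.2% lower. Ifit2 probe 2 (adjusted p = 0.137), Ifit3 (0.194), Gbp2 (0.0634), Ddx58 probe 4 (0.181), Zbp1 (0.140) and Rtp4 (0.0552) were no longer called higher. With control serum 17 higher and 7 lower calls remained in that fit, against 29.4% of all tested probes higher and 26.8% lower. The calls of Ifit2 probe 2 (adjusted p = 0.138), Adar probe 1 (0.0649) and Trim25 probe 1 (0.0966) were lost. The median member difference was 0.41 with control serum and 0.37 with irradiated serum, against 0.02 and -0.01 over all probes. These comparisons share no arrays, but both set the same 2 sets of slides and scan days against each other.

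Trim30a had the largest differences. Probe 1 was higher in the 20-day set by 3.38 ± 0.17 in both comparisons (10.4-fold, limma adjusted p = 4.36e-12 with irradiated serum and 2.48e-12 with control serum), and probe 2 by 3.42 ± 0.25 with irradiated serum and 2.36 ± 0.25 with control serum. Probe 1 was above background on 4 and probe 2 on only 2 of the 5 arrays with 4 Gy serum, so the irradiated difference at probe 2 is set against a group mostly at background. The 10 arrays of the 20-day set lay at probe 1 between -2.58 and -1.59, above all 10 arrays of the 10-day set. Oas2 probe 1 averaged -3.02 ± 0.23 on 8 Gy arrays and -5.08 ± 0.69 on 4 Gy arrays, and -2.59 ± 0.48 on 20-day and -5.12 ± 0.37 on 10-day control arrays (SD, n = 5 each). Oas2 was thus higher by 2.07 ± 0.28 with irradiated serum (limma adjusted p = 4.79e-06) and by 2.53 ± 0.28 with control serum (1.66e-07). Oas1a was higher by 1.59 ± 0.22 with irradiated and 1.39 ± 0.22 with control serum, and Gbp3 by 0.94 ± 0.23 and 1.77 ± 0.23. In the same order, Parp14 probe 1 (1.15 and 1.21), Iigp1 (1.32 and 1.21) and Eif2ak2 (0.62 and 1.23) were called higher in both as well.

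Some members were lower in the 20-day set. With control serum these included Stat2 (-0.95 ± 0.24, limma adjusted p = 0.00197), Irf7 (-0.95 ± 0.23, adjusted p = 0.00118), Ddx58 probes 1 and 2 (-0.88 ± 0.14 and -0.74 ± 0.12) and both Trim25 probes (-0.43 ± 0.13 and -0.74 ± 0.18). Without the slide 4 control arrays Stat2 differed by -0.29 (adjusted p = 0.170) and Irf7 by -0.64 (adjusted p = 0.0665), and neither was called. Ddx58 probes 3 and 4 were called higher in the same comparison (0.80 ± 0.15 and 0.53 ± 0.14). Ddx58, Ifit2 and Irf1, 3 of the 9 members with several tested probes, had probes called in opposite directions there, against 12.8% of all such genes, and none did with irradiated serum. With irradiated serum the 2 lower calls were Ifi44 (-1.12 ± 0.35, adjusted p = 0.0110) and Adar probe 1 (-0.62 ± 0.10, adjusted p = 5.97e-05). For Stat2 and Irf7 the 20-day minus 10-day difference with irradiated serum was 0.23 ± 0.24 and 0.33 ± 0.23, neither called. All 23 tested macrophage and myeloid probes were higher in the 20-day set in both comparisons, by a median of 3.85 with irradiated serum and 4.15 with control serum. Of 19 fibroblast probes, 4 were higher and 12 lower with irradiated serum, and 3 higher and 14 lower with control serum. The shares of all tested probes were 28.2% and 28.9% with irradiated serum, and 35.4% and 32.3% with control serum. The part of macrophage, myeloid and fibroblast transcripts in the members' differences was not tested. Between 8 Gy and control serum 3 of the 23 macrophage probes were higher and 5 lower. Of the 19 fibroblast probes 9 were higher and 2 lower there, against 20.6% and 27.4% of all tested probes for both lists.

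**Figure D4:**
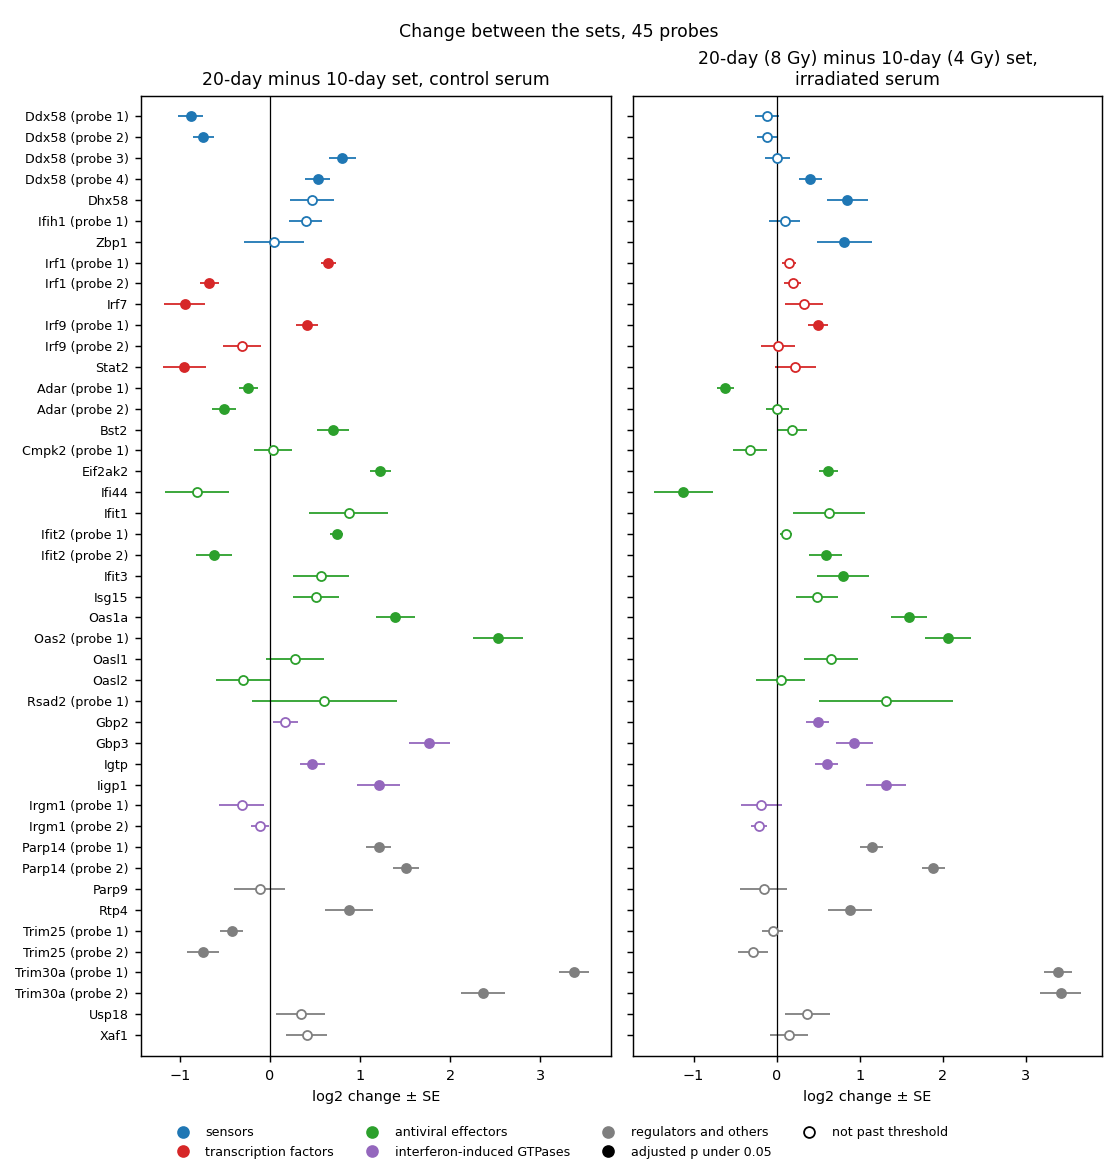
Log2 change between the sets (x axis, ± SE of the limma fit) for the 45 tested probes (rows, grouped by role), at left 20-day minus 10-day with control serum and at right 20-day (8 Gy) minus 10-day (4 Gy) with irradiated serum. Filled points passed an adjusted p of 0.05, and Trim30a and Oas2 lie farthest to the right in both panels.

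Within each group the median SD of the members was above that of all probes, most clearly on 10-day control arrays. On 10-day control arrays the median SD was 0.321 for the members and 0.115 for all probes, and 22 of 45 member probes (48.9%) exceeded the 90th percentile of all SDs. On 4 Gy arrays the medians were 0.228 and 0.145, on 8 Gy arrays 0.175 and 0.142, and on 20-day control arrays 0.365 and 0.295. The share of member probes above the 90th percentile was 22.2% on 4 Gy arrays and 24.4% on 20-day control arrays. On 8 Gy arrays it was 11.1%, near the share of all probes. The members also deviated together on certain arrays. On 10-day control array 2 the members were highest of the group at 26 of 45 probes (57.8%), against 14.7% of all probes, and on control array 4 lowest at 33 (73.3%), against 19.7%. In the 4 Gy group array 3 was highest at 27 (60.0%, against 15.4% of all probes) and array 1 lowest at 27 (against 27.4%). In the 20-day control group array 5 was highest at 31 (68.9%), against 11.2%. No array of the 8 Gy group was highest or lowest at more than 15 of the 45. These shares are descriptions of single arrays, and members of 1 pathway are not independent of each other.

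**Figure D5:**
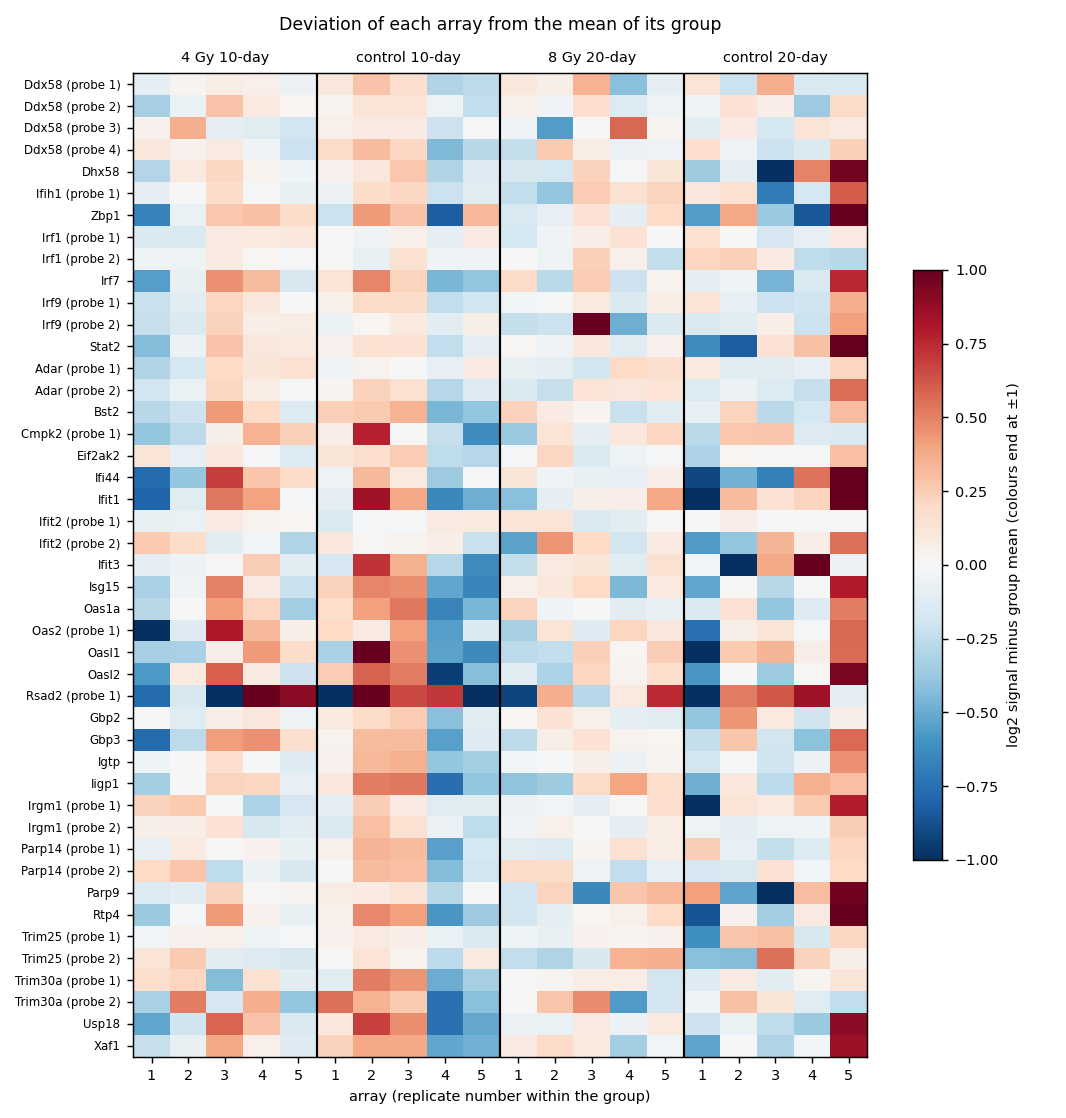
Deviation of each array (columns, replicate number within the 4 groups) from the mean of its group for the 45 tested probes (rows), in log2 units by colour, red above and blue below, with colours ending at ±1. Columns of a single colour run through most rows at 10-day control arrays 2 and 4 and at 20-day control array 5, where 26, 33 and 31 of the 45 probes were the highest or lowest of their group. Control arrays 3 and 5 of the 10-day set also lay mostly to 1 side, with 43 and 6 of the 45 probes above the group mean. On 4 Gy arrays 3 and 1 these counts were 37 and 9.

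The genes around the members were counted in 4 lists, and their calls were not checked with slide as a block. Over all tested probes 20.6% were higher and 27.4% lower with 8 Gy serum, and 3.85% and 1.39% with 4 Gy serum. Several interferon genes themselves were dark. No array was above background for Ifnb1, for Ifna4, for Ifna12 or for either probe of Ifng, and none of these was tested. The 8 tested probes of ligands and receptors belonged to 6 genes, not only to Ifnar1, Ifnar2, Ifngr1 and Ifngr2. Of these probes 1 was higher and 1 lower with 8 Gy serum and none was called with 4 Gy serum. The interferon gamma receptor held both, Ifngr2 at its dimmer probe (0.46 ± 0.06, limma adjusted p = 1.58e-05) and Ifngr1 (-0.28 ± 0.07, adjusted p = 0.00179). The type I receptor chains were not called, at 0.19 ± 0.12 for Ifnar1 and at 0.09 ± 0.11 and -0.14 ± 0.09 for Ifnar2 with 8 Gy serum.

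Of 18 probes of kinases, STATs and inhibitors, 6 were higher and 5 lower with 8 Gy serum. With 4 Gy serum 1 was higher and 1 lower. The shares of all tested probes were 20.6% and 27.4% with 8 Gy serum, and 3.85% and 1.39% with 4 Gy serum. Tyk2, a kinase of the type I receptor, was higher by 0.93 ± 0.09 (limma adjusted p = 2.55e-07) and Socs3, a feedback inhibitor of cytokine signalling, by 0.83 ± 0.22 (adjusted p = 0.00443). Jak1 was lower at 1 of its probes (-0.27 ± 0.06, adjusted p = 0.00128). Irf2, which opposes Irf1, changed by -0.64 ± 0.14 (adjusted p = 0.000967). Changes in this list ran from -0.64 to 1.76 with 8 Gy serum, so Tyk2 was not its largest rise.

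Of 20 probes of further sensors and their signalling, 5 were higher and 2 lower with 8 Gy serum. With 4 Gy serum 2 were higher. The shares of all tested probes were 20.6% and 27.4% with 8 Gy serum, and 3.85% and 1.39% with 4 Gy serum. Myd88, the adaptor of Toll-like receptors, was higher by 0.37 ± 0.08 (limma adjusted p = 0.000917) and Ikbke, a kinase of Irf3 and Irf7, by 0.85 ± 0.08 (adjusted p = 9.40e-08). Cgas, the sensor of cytosolic DNA, changed by -0.38 ± 0.09 (adjusted p = 0.00284) and Irf3 by -0.26 ± 0.10 (adjusted p = 0.0346). Of 45 probes of further interferon-induced genes, 6 were higher and 5 lower with 8 Gy serum, at a median of -0.09. With 4 Gy serum 1 was higher, at a median of -0.01. These counts stand against the same shares of all tested probes. Tap1, of the peptide transporter for antigen presentation, was higher by 0.84 ± 0.11 (limma adjusted p = 6.57e-06). Ifi44l (-0.79 ± 0.23, adjusted p = 0.00832) and Ifi27l2a (-0.76 ± 0.25, adjusted p = 0.0174) were lower. Changes in this list ran from -0.79 to 2.17 with 8 Gy serum, so Tap1 was not its largest rise. Between the sets, 25 of the 45 were higher and 5 lower in the 20-day set with irradiated serum, at a median of 0.52. With control serum 27 were higher and 5 lower, at a median of 0.56. The shares of all tested probes were 28.2% and 28.9% with irradiated serum, and 35.4% and 32.3% with control serum. The part of the macrophage and myeloid transcripts in these differences was not tested.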

How the data were processed

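The 20 one-colour (Cy3) arrays were read from the deposited scanner files. Their intensity values are the authors' gProcessedSignal, background-subtracted within each array by Agilent Feature Extraction 10.5.1.1 per the file headers (the submitters' processing notes name 11.0). Control spots and spots marked as non-uniform or as population outliers were left out, spots of a probe were averaged, and log2 values were set against the 75th percentile of each array. Probes were named through the RefSeq accession of the array annotation (24836 of 41174 probes, 17174 genes). Of the 41174 probes, 26239 had some group with every array well above background and were tested with limma 3.58.1 (R 4.3.3, two-sided, 1 fit over the 4 groups). Benjamini-Hochberg adjustment ran over all tested probes, and an adjusted p under 0.05 is a call. limma's recovery was tested on simulated data with independent noise on each array and no slide effect. That simulation therefore cannot speak to differences between slides. The number of arrays limits the precision.

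The members, gene lists and marker lists were chosen with earlier results of these data known. A gene of these lists is not reported here and is left out of their counts. Every array value is given for member probes called with irradiated serum and for Irf7, Irf9, Stat2, Isg15, Ifit1 and Usp18. The authors' deposited value table holds log2 values that matched the recomputed ones, centred per probe over the arrays of a set (correlation of 0.987 to 0.9997 per array), with column medians between -0.036 and 0.047. It served as an alternative for comparisons within a set, and its direction is that of the scanner values. The scanner files hold no mean signal, so normexp (offset 50) used the median spot and background signals. Same-numbered arrays of the irradiated and control groups deviated together at every number of the 20-day set (correlations of 0.131 to 0.401), a pairing read from the data and not from the labels, although 8 Gy arrays 2, 3 and 4 correlated best with control arrays 3, 2 and 5. In the 10-day set the correlations were -0.05 to 0.17. Other alternatives were the array median, quantile and cyclic loess scalings, no filter on dim probes, 1 probe per gene, slide and replicate blocks, and leaving out each array. Added after seeing the data were fits of the 10 arrays of a set, a replicate block over the 20-day arrays, and fits without the slide 4 control arrays.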

Additional observations from a re-analysis of the deposited data

Results flagged for a closer look

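Single arrays stood apart from the other 4 of their group at 6 of 92 combinations of probe and group (6.52%), near the 1 in 20 that chance gives. In the 8 Gy group, Isg15 read 1.06 on array 4, against 1.57 to 1.72 on the others, and Irf9 probe 2 read -1.84 on array 3, against -3.42 to -3.08. In the 20-day control group, array 5 stood apart at Usp18 (0.65, against -0.61 to -0.31), Irgm1 probe 2 (1.69, against 1.34 to 1.39) and Adar probe 2 (-1.98, against -2.77 to -2.60). On array 2 of that group Ifit2 probe 1 read -0.26, against -0.34 to -0.33.

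The responses to 8 Gy and to 4 Gy serum differed at 12 member probes by the limma test of the difference. Of all tested probes, 15.3% were called higher and 21.1% lower by that test. The 8 with the higher 8 Gy response were Irf7 (1.27, adjusted p = 0.00484), Ifit2 probe 2 (1.21, adjusted p = 0.00255), Stat2 (1.17, adjusted p = 0.0121), Trim30a probe 2 (1.06, adjusted p = 0.0235), Irf1 probe 2 (0.86, adjusted p = 0.000224), Ddx58 probe 1 (0.76, adjusted p = 0.00652), Ddx58 probe 2 (0.63, adjusted p = 0.00690) and Adar probe 2 (0.52, adjusted p = 0.0439). The 4 with the lower one were Ddx58 probe 3 (-0.80, adjusted p = 0.00703), Ifit2 probe 1 (-0.63, adjusted p = 0.000103), Eif2ak2 (-0.60, adjusted p = 0.00881) and Irf1 probe 1 (-0.50, adjusted p = 0.00266). With slide as a random block, Stat2 (adjusted p = 0.0523), Ifit2 probe 2 (0.0603), Irf1 probe 1 (0.0579), Ddx58 probe 1 (0.0736), Adar probe 2 (0.176) and Trim30a probe 2 (0.209) were not called, which left 6 of the 12. In that fit 8.93% of all tested probes were called higher and 11.3% lower. Adar probe 2 also lost its call without any 1 of 14 of the 20 arrays. Dose, day, slide and scan day change together between the sets and cannot be told apart.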

How the results depend on the processing

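Signs were compared over all runs for member probes called with irradiated serum and for Irf7, Irf9, Stat2, Isg15, Ifit1 and Usp18. None of their called values changed sign under any alternative run. The signs of other members and of the genes around them were not compared in this way. For 4 Gy against control serum (1 higher, 2 lower) the higher count was 0 with the array median, normexp, no filter on dim probes, the replicate block, and slide as a random or a fixed block. The lower count was 4 with the array median, quantile, cyclic loess and the replicate block, 1 with normexp, no filter or 1 probe per gene, and 0 with slide as a random or a fixed block. For 8 Gy against control serum (7 higher, 11 lower) the higher count was 3 with 1 probe per gene, the lower count 6 with slide as a random block, and the counts without the slide 4 control arrays were 4 higher and 17 lower. The replicate block left 7 higher and 11 lower there, and a fit of the 20-day arrays alone with that block gave 6 higher. For the difference between the responses (8 higher, 4 lower) the higher count was 4 with normexp, 3 with 1 probe per gene and 3 with slide as a random block. For the 20-day against the 10-day set with control serum (17 higher, 10 lower) the lower count was 5 with normexp, 4 with 1 probe per gene and 5 without the slide 4 control arrays. Leaving out 1 array at a time gave 0 to 2 higher and 0 to 4 lower for 4 Gy, 6 to 8 and 8 to 15 for 8 Gy, 7 to 9 and 4 to 6 for the difference, 17 to 20 and 9 to 11 between the sets with control serum, and 14 to 18 and 2 with irradiated serum. The cause of these changes was not tested, except that fits with 1 probe per gene or without arrays hold fewer probes or arrays.

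Scaling to the array median moved the median of all probes at 8 Gy to -0.20, against -0.06 as reported, and the calls over all probes to 3806 higher and 9937 lower, against 5409 and 7191. At 4 Gy it gave 811 higher and 670 lower, against 1011 and 366, and normexp gave 11152 higher and 5874 lower between the sets with control serum, against 9295 and 8480. Signal near background limits the members Rsad2, Cmpk2, Oas3 and, in the 10-day set, Trim30a and Oas2.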
